A study of Mus musculus with 20 samples.

Results

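The translation initiation and elongation factor genes were examined in 20 bulk RNA-seq libraries of mouse mammary tumours, 5 in each of 4 groups. The set was every protein-coding gene whose symbol starts with Eif or Eef, leaving out the eIF2 kinases (Eif2ak), with a normalised count of 10 or more in 5 or more libraries. A normalised count is the deposited read count of a transcript divided by the size factor of its library, and each gene was represented by its transcript with the highest total. Of 65 such genes 62 passed, among 19876 genes that passed in all. The members nearest to that limit were Eif5a2, at 10 or more in 17 libraries, and on the other side Eef1a2, in 4 libraries, while Eif2s3y and Eif4e1b reached it in 0. The other 61 members reached it in all 20 libraries.

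All tumours came from 1 mouse mammary tumour line, SSM3, which is positive for the oestrogen receptor. Its cells were placed in a mammary gland of mice of the strain 129S6/SvEv (129/SvEv in the sample labels), 2 to 4 months old, and treatment began at about 150 mm3. Vehicle mice had sham surgery and a daily injection of 5% ethanol in saline for 25 days. The anti-PD-1 mice had the same surgery and injections and 250 µg of antibody against the checkpoint receptor PD-1 on days 3, 5 and 7. Letrozole mice were ovariectomised and given the aromatase inhibitor letrozole at 1 mg/kg daily for 25 days, and letrozole + anti-PD-1 mice had the ovariectomy, the letrozole and the antibody. The effects of ovariectomy and drug cannot be told apart in this design, and "letrozole" names the pair.

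Translation begins when eIF2 brings the initiator tRNA to the small ribosomal subunit, where eIF1, eIF1A and the large eIF3 complex help it to scan the mRNA. The eIF4F complex recruits the mRNA: eIF4E binds the cap, eIF4A unwinds RNA and eIF4G holds them together, while eIF4E-binding proteins, which are targets of the kinase mTOR, compete with eIF4G for eIF4E. In elongation eEF1A delivers aminoacyl-tRNAs, the eEF1B subunits recharge eEF1A with GTP, and eEF2 moves the ribosome along. The genes of the core factors are expressed in nearly every cell type, and several are known targets of the growth regulator Myc.

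With 1 transcript per gene, the libraries held from 12497282 reads (anti-PD-1 replicate 1) to 31387527 reads (anti-PD-1 replicate 5). Vehicle replicate 3 and anti-PD-1 replicate 1 stood apart on principal components in an earlier analysis of these files. Vehicle replicate 3 had the highest fibroblast, macrophage and adipocyte marker means of its group (12.39, 9.90 and 8.09 on the log2(normalised count + 1) scale). Letrozole replicates 1, 4 and 5 and letrozole + anti-PD-1 replicate 2 held skeletal muscle transcripts. All 20 libraries were kept, and calls of translation factor genes that are gained or lost without them are given with the genes concerned.

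The effect of letrozole was tested with limma, averaged over the mice without and with antibody (10 tumours against 10). Of the 62 genes 7 fell and 1 rose at an adjusted p under 0.05 (Benjamini and Hochberg over all genes tested), against 7% of all tested genes (3.72% fell and 3.28% rose). At an unadjusted p under 0.05 there were 29 of the 62, against 22.9% of all tested genes. edgeR called 9 of the 62 (6.83% of all tested genes) and DESeq2 16 (10.1%). The genes that fell were Eef1b2, Eif1a, Eif2b1, Eif3e, Eif4b, Eif4e and Eif4ebp1, and the gene that rose was Eif4e3. The changes were small: the 7 falls lay between −0.54 and −0.27 on the log2(normalised count + 1) scale, and the rise of Eif4e3 was 0.60. Of all 62, 54 were lower on average and 8 higher, with a median log2 difference of −0.16, against a median of 0.03 and 45.9% lower among all tested genes. The standard error of the log2 difference had a median of 0.09 for the 62 and 0.17 for all tested genes. The count of 8 was 16 without vehicle replicate 3, 5 without letrozole replicate 3 and 0 without the 4 libraries with skeletal muscle transcripts. Over all tested genes the count of 1391 moved with it, to 2329, 999 and 284. In a tumour piece, fewer cells of a type and less RNA per cell cannot be told apart.

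**Figure D1:**
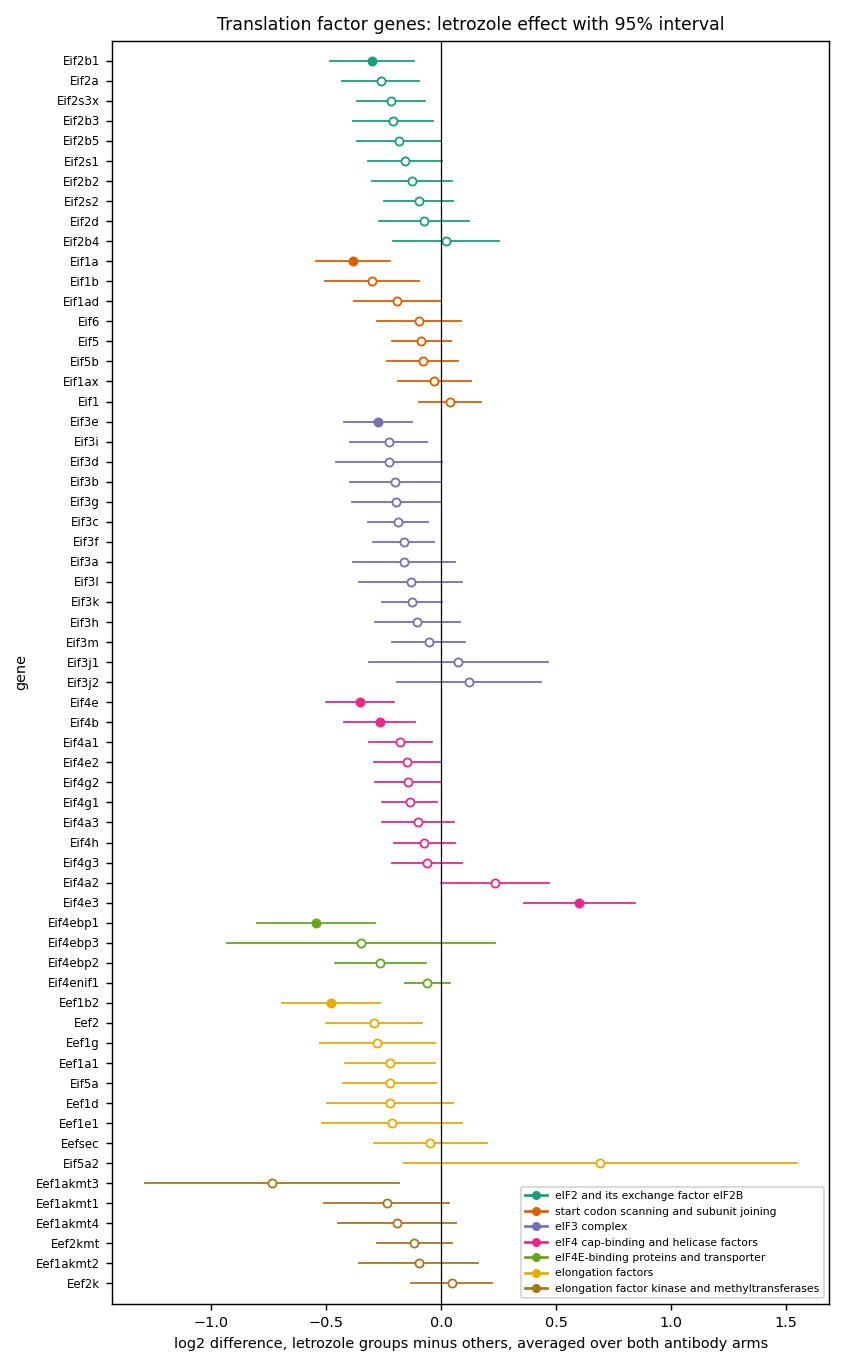
Log2 difference between letrozole-treated and other tumours for 62 translation factor genes, averaged over both antibody arms, as points with 95% intervals from limma, coloured by role; filled points passed the adjusted threshold. Most points lie left of 0 with small differences, 7 of them filled, and Eif4e3 is the filled point on the right.

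Markers of cell types were summarised as list means on the same log2 scale. The luminal epithelial list had 0 genes at 0 in any library. Its means were 13.92 ± 0.11 in vehicle, 13.95 ± 0.16 in anti-PD-1, 14.12 ± 0.10 in letrozole and 14.04 ± 0.11 in combination tumours (mean ± SD, n = 5). Over both arms 7 of its 8 genes were higher with letrozole and 1 was lower, with log2 differences from −0.13 to 0.52. Mitosis genes were lower with letrozole on average, with 10.99 ± 0.16, 10.82 ± 0.13, 10.17 ± 0.30 and 10.51 ± 0.42 in the same order. Macrophage markers were higher with letrozole on average, with 8.03 ± 1.16, 8.15 ± 0.88, 8.94 ± 0.41 and 8.86 ± 0.60, and 0 of the 8 at 0 in any library. Fibroblast means were 10.34 ± 1.63, 10.64 ± 1.03, 11.09 ± 0.85 and 10.82 ± 0.73. The fibroblast list was split: over both arms 6 genes were higher with letrozole and 2, Dcn and Fn1, were lower. Its log2 differences ran from −1.26 to 1.86. T cell means were 2.88 ± 1.18, 2.63 ± 0.88, 3.87 ± 1.49 and 3.50 ± 1.36, with up to 3, 5, 4 and 3 of the 8 genes at 0 in a library. The highest T cell means were those of letrozole replicates 4 and 5 (5.32 and 5.48) and letrozole + anti-PD-1 replicate 2 (5.61). These libraries also held skeletal muscle transcripts. The part of these lists in the differences of the translation factor genes was not tested.

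Among the cap-binding and helicase factors, 2 of 11 fell (Eif4e and Eif4b) and 1 rose (Eif4e3), against 3.72% and 3.28% of all tested genes. Eif4e stood at 3135, 3174, 2422, 3024 and 2976 normalised counts in the vehicle tumours and at 3079.6, 2930.3, 2917, 3401 and 2544 in the anti-PD-1 tumours. Its values were 2232, 2049.8, 2378, 2509 and 2312 with letrozole and 2396, 2059, 2049, 2762 and 2394 with letrozole + anti-PD-1. The 2 highest letrozole values, 2509 and 2762, were the ones above the lowest value without letrozole, which was that of vehicle replicate 3. In the average over both arms Eif4e, the cap-binding protein of eIF4F, fell (mean 2946 ± 304 to 2296 ± 171 without antibody and 2974 ± 309.8 to 2332 ± 295 with it, SD, n = 5; log2 −0.35, SE 0.07, adjusted p = 0.0048). The call was lost without the 4 libraries with skeletal muscle transcripts (log2 −0.36, adjusted p = 0.0617).

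Eif4e3 encodes a relative of eIF4E that also binds the cap. The normalised counts of Eif4e3 were 915, 1224, 1067, 1123 and 960.0 with vehicle and 892, 922, 1659, 1132 and 1012 with anti-PD-1. They were 1533, 1552, 1521, 1569 and 1899 with letrozole and 1623, 2039, 2124, 1191 and 1451 with the combination. The 5 letrozole values lay above all 5 vehicle values, which held for 1 of the 62 genes, against 1.71% of all tested genes, whereas the groups with antibody overlapped through anti-PD-1 replicate 3. Its mean went from 1058 ± 125 to 1615 ± 159.9 without antibody and from 1124 ± 314 to 1686 ± 394 with it (log2 0.60, SE 0.12, adjusted p = 0.00352), a call lost without the 4 muscle libraries (log2 0.53, adjusted p = 0.0867). Per kb of transcript Eif4e3 stood at 421 ± 49.5 and Eif4e at 590.3 ± 60.9 normalised counts in vehicle tumours. In letrozole tumours the order was the other way round, with 642 ± 63.6 for Eif4e3 and 460.0 ± 34.3 for Eif4e. These are levels of single transcripts: the Eif4e transcript used held 24.7% of the summed values of its gene, and the Eif4e3 transcript 100%. Transcripts of a gene may share reads, so 24.7% need not be the share of the Eif4e reads. The Eif4e3 transcript shares 14.8% of its exon bases with Gm20696 on the same strand, so part of its reads is uncertain.

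Eif4b encodes a cofactor of the eIF4A helicase. In the vehicle group Eif4b was measured at 14749, 11044, 9755, 11474 and 11601 normalised counts, and in the anti-PD-1 group at 12079, 10840.5, 11802, 11514 and 10386. The letrozole group had 10078, 10452, 8882, 9238 and 9126, and the letrozole + anti-PD-1 group 8257, 10218, 11262, 9299 and 8728. It fell on average (log2 −0.27, SE 0.07, adjusted p = 0.0308), with overlap between the groups in both arms. The call was lost in 11 of 33 alternatives, among them without vehicle replicate 1, anti-PD-1 replicate 4, letrozole replicate 3, 4 or 5, letrozole + anti-PD-1 replicate 1 or 5 (adjusted p from 0.0538 to 0.0634). The helicase gene Eif4a1 was not called. Vehicle tumours had 13449, 15829, 11297, 14441 and 13110.0 normalised counts of Eif4a1 and anti-PD-1 tumours 12844, 14388, 12619.8, 13593 and 12152. Letrozole tumours had 11979, 12253, 11109, 11634 and 11253 and letrozole + anti-PD-1 tumours 10674, 12476, 13851, 11838 and 10877. The groups overlapped in both arms. Its average difference was −0.18 (95% interval −0.32 to −0.04, adjusted p = 0.105), and it was called without both libraries that stand apart (log2 −0.22, adjusted p = 0.0324) and without vehicle replicate 3 (log2 −0.21, adjusted p = 0.0333). The Eif4a1 transcript used is annotated as retaining an intron, and 33.3% of its 50-base words also occur in other genes, most of them in the pseudogene Eif4a-ps4.

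Eif4a2, the close paralogue of Eif4a1, was higher with letrozole on average. Eif4a2 stood at 5687, 7339, 5188, 7153 and 5385 normalised counts in the vehicle tumours and at 7102, 7044, 5369, 6808 and 4757 in the anti-PD-1 tumours. Its values were 6593, 11785, 8048, 6696 and 6175 with letrozole and 6274, 6194, 6497, 7704 and 7334 with letrozole + anti-PD-1. The highest value was that of letrozole replicate 2, the groups overlapped, and Eif4a2 was not called. Its average difference was 0.23 (95% interval 0.00 to 0.47, adjusted p = 0.22). The scaffold gene Eif4g1 was not called. The normalised counts of Eif4g1 were 20247, 18844, 16460.4, 20556 and 18195 with vehicle and 17664, 17589.5, 19470.2, 19998 and 18638 with anti-PD-1. They were 17706, 17785, 17851, 18882 and 16820.0 with letrozole and 16284, 14772, 16134, 18354 and 16128 with the combination. The groups overlapped, and the difference was −0.14 (95% interval −0.26 to −0.02, adjusted p = 0.163). The 5 other genes of the list, Eif4e2, Eif4g2, Eif4g3, Eif4a3 and Eif4h, lay between −0.15 and −0.06, with adjusted p-values of 0.21 to 0.646. Of these Eif4g2 was called without both libraries that stand apart (log2 −0.21, adjusted p = 0.0303).

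The cap-binding step is held back by eIF4E-binding proteins. In the vehicle group Eif4ebp1 was measured at 1165, 1525, 700.2, 1069 and 1205 normalised counts, and in the anti-PD-1 group at 968, 1209, 1044, 1165 and 707. The letrozole group had 783, 805, 621, 778 and 614, and the letrozole + anti-PD-1 group 667, 892, 642, 761 and 680.3. The 2 values without letrozole that lay inside the letrozole range were those of vehicle replicate 3 and anti-PD-1 replicate 5. Eif4ebp1 fell from 1133 ± 296 to 720.0 ± 94.4 without antibody and from 1019 ± 199 to 728 ± 102 with it (log2 −0.54, SE 0.12, adjusted p = 0.0109), and the call was lost without the 4 muscle libraries (log2 −0.59, adjusted p = 0.0735). Its relatives Eif4ebp2 (log2 −0.26, 95% interval −0.46 to −0.07, adjusted p = 0.0944) and Eif4ebp3 (log2 −0.35, 95% interval −0.93 to 0.24, adjusted p = 0.485) were not called. Eif4ebp2 was called by DESeq2 (log2 −0.29, adjusted p = 0.0456) and without vehicle replicate 2 (log2 −0.31, adjusted p = 0.0474). Eif4ebp3 was low, at 15.1 to 78.6 normalised counts, and 67.3% of its exon bases are shared with a gene on the same strand. Eif4enif1, which encodes the nuclear importer of eIF4E, differed by −0.06 (95% interval −0.16 to 0.04, adjusted p = 0.475).

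**Figure D2:**
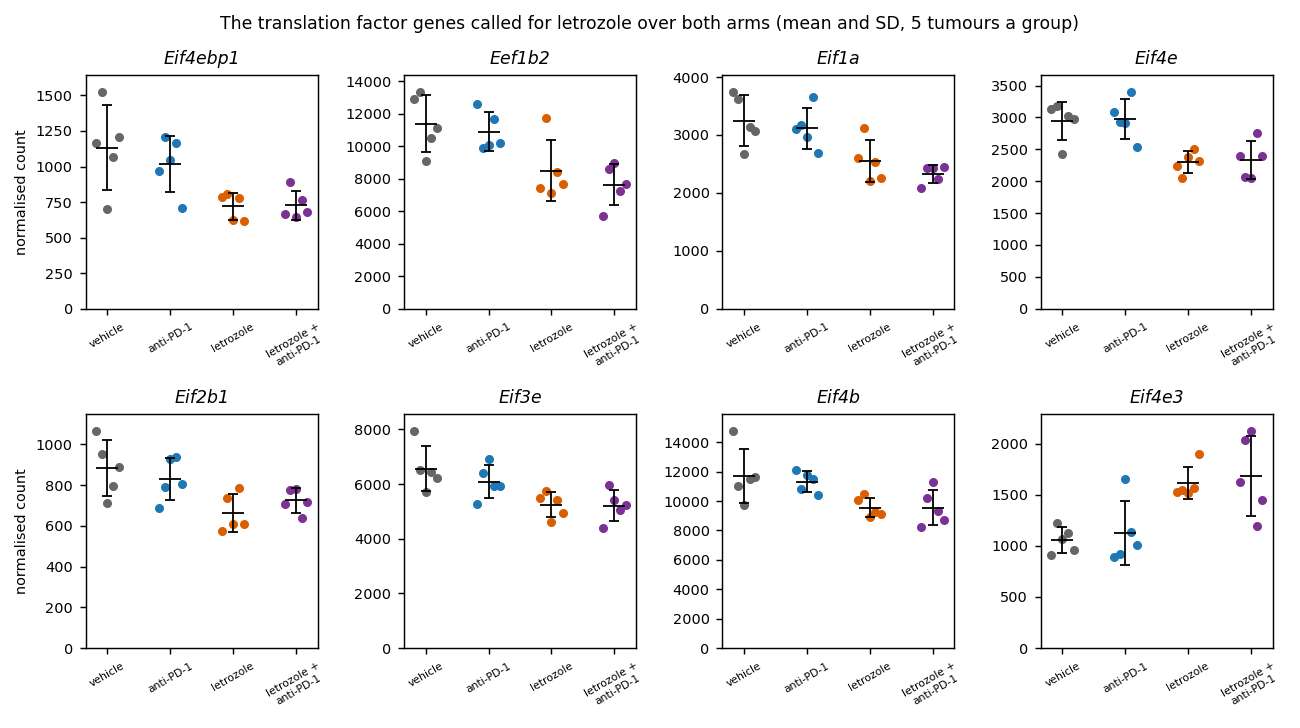
Normalised counts of the 8 genes called for letrozole over both arms, 1 point a tumour, with the mean and SD of 5 tumours a group, and axes that start at 0. In 7 panels both letrozole groups lie lower on average than the groups without letrozole, and in the panel of Eif4e3 they lie higher.

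The 250 bases before the annotated start are shown for Eif4e, Eif4b, Eef1b2 and Eif2b1, as members called for the same comparison. These genes fell and have an entry in RefSeq's promoter table (build GRCm38.p6). The choice also left out entries of a single chromosome, and Eif1a, Eif3e and Eif4ebp1, which also fell, are not shown. Capitals mark the E-box CACGTG, the letters bound by Myc with its partner Max, which reads the same on both strands. For Eif4e the second of its 2 annotated starts is shown (chr3:138527018-138527267, plus strand). The windows of Eif4b (chr15:102073523-102073772, plus strand), Eef1b2 (chr1:63176581-63176830, plus strand) and Eif2b1 (chr5:124579132-124579381, minus strand) follow.
Eif4e: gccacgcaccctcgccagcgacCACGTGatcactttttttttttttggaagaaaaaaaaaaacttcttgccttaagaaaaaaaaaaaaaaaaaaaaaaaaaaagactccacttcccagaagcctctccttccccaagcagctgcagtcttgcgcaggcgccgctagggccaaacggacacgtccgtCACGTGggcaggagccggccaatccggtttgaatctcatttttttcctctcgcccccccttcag
Eif4b: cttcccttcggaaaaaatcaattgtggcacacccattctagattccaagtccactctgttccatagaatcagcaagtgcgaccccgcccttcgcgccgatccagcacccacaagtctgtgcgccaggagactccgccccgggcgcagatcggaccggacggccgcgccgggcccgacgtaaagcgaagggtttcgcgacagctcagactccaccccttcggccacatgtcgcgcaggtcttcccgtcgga
Eef1b2: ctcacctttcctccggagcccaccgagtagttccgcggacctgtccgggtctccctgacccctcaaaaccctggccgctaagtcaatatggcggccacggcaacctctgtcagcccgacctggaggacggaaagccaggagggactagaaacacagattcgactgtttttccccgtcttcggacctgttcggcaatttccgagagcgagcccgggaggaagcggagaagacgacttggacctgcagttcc
Eif2b1: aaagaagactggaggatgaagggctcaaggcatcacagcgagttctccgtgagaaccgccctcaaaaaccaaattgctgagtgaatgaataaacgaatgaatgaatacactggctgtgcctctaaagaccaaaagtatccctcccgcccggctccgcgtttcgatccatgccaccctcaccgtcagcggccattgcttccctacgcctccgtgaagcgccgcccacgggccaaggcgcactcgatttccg
The Eif4e window held CACGTG at 2 places, whose first bases lie 228 and 64 bases before the start. The windows of Eif4b, Eef1b2 and Eif2b1 held 0, as did that of the other Eif4e start. Of 47 members with an entry, 12 had CACGTG in at least 1 window (25.5%), against 9.29% of 12180 tested genes with an entry and 6.02% of all 32851 windows. The 12 were Eef1akmt4, Eef2, Eef2k, Eif1b, Eif3f, Eif3k, Eif4a1, Eif4e, Eif4g1, Eif4h, Eif5a and Eif5a2, of which only Eif4e was called. The palindromic oestrogen response element, also searched on both strands, was in 0 of the 47. It was in 0.0246% of the tested genes with an entry and in 0.0639% of all windows. An element this rare cannot tell the 47 from other genes. A match is a match of letters and was not measured as a binding site.

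The list for eIF2 held 10 genes, with its exchange factor eIF2B and the alternative initiator tRNA factors Eif2a and Eif2d. Of these 1 fell, against 3.72% of all tested genes, and 9 were lower on average, with a median of −0.17. The gene that fell was Eif2b1, the alpha subunit of eIF2B. Vehicle tumours had 1065, 954, 712, 797 and 891 normalised counts of Eif2b1 and anti-PD-1 tumours 686, 791, 931, 937 and 805. Letrozole tumours had 574, 736, 609, 788 and 609 and letrozole + anti-PD-1 tumours 707, 778, 782, 637 and 719. The groups overlapped in both arms, and the fall was −0.41 without antibody and −0.19 with it. In the average Eif2b1 was called close to the threshold (log2 −0.30, SE 0.09, adjusted p = 0.0412). The call was lost in 18 of 33 alternatives, among them with each library centred on its median (adjusted p = 0.062) and without vehicle replicate 1, 2 or 5, anti-PD-1 replicate 2, 3 or 4, letrozole replicate 1, 3 or 5, letrozole + anti-PD-1 replicate 1, 4 or 5 (adjusted p from 0.0548 to 0.084).

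The alpha subunit of eIF2 itself, Eif2s1, is the protein that stress kinases phosphorylate. It was not called. Eif2s1 stood at 4568, 4212, 2908, 3931 and 4015 normalised counts in the vehicle tumours and at 2952, 3298, 4008, 4004 and 3269.6 in the anti-PD-1 tumours. Its values were 3296, 3268, 2971, 3528 and 3517 with letrozole and 3173, 3467, 3504, 3241 and 3036 with letrozole + anti-PD-1. The values of the letrozole groups lay inside the range of the others, and the difference was −0.16 (95% interval −0.32 to 0.00, adjusted p = 0.228). The lower end of that range is vehicle replicate 3, and Eif2s1 was called without both libraries that stand apart (log2 −0.24, adjusted p = 0.0156) and without vehicle replicate 3 (log2 −0.21, adjusted p = 0.0438). Eif2b5, the catalytic subunit of eIF2B, was not called. The normalised counts of Eif2b5 were 1578, 2008, 1312, 1790.3 and 1565 with vehicle and 2109.5, 1563, 1653, 1527 and 1369 with anti-PD-1. They were 1334, 1572, 1416, 1632 and 1328 with letrozole and 1594, 1337, 1213, 1425 and 1568 with the combination. The groups overlapped in both arms. Its difference was −0.18 (95% interval −0.36 to 0.00, adjusted p = 0.213). Eif2b4 was the 1 gene of the list that was higher on average. In the vehicle group Eif2b4 was measured at 985, 749, 653, 853 and 847 normalised counts, and in the anti-PD-1 group at 1381, 867, 875, 778 and 777. The letrozole group had 744, 936, 908, 999 and 848, and the letrozole + anti-PD-1 group 830.0, 703, 1165, 858 and 819. Anti-PD-1 replicate 1 had the highest value, and the difference was 0.02 (95% interval −0.21 to 0.25, adjusted p = 0.932). Eif2a (log2 −0.26, 95% interval −0.43 to −0.10, adjusted p = 0.053) and Eif2s3x (log2 −0.22, 95% interval −0.37 to −0.07, adjusted p = 0.0686) came nearest to a call. Eif2a was called by edgeR (log2 −0.28, adjusted p = 0.0482), by DESeq2 (log2 −0.27, adjusted p = 0.0272), without both libraries that stand apart (log2 −0.29, adjusted p = 0.0358), without vehicle replicate 3 (log2 −0.28, adjusted p = 0.0326), without anti-PD-1 replicate 2 (log2 −0.29, adjusted p = 0.0409), without letrozole + anti-PD-1 replicate 2 (log2 −0.29, adjusted p = 0.0466) and without letrozole + anti-PD-1 replicate 3 (log2 −0.28, adjusted p = 0.0492). Further limma calls of Eif2a came with a filter of 50 or more in 5 or more libraries (log2 −0.26, adjusted p = 0.0405). The sum over transcripts (log2 −0.28, adjusted p = 0.0408) and the most abundant protein-coding transcript (log2 −0.26, adjusted p = 0.0423) also gave a call of Eif2a. Eif2s3x was called by DESeq2 (log2 −0.23, adjusted p = 0.0346), without both libraries that stand apart (log2 −0.29, adjusted p = 0.00593), without vehicle replicate 3 (log2 −0.26, adjusted p = 0.017) and without anti-PD-1 replicate 1 (log2 −0.25, adjusted p = 0.0315). The other 4 genes lay between −0.21 (Eif2b3) and −0.07 (Eif2d).

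Of 7 genes for start codon scanning and subunit joining 0 fell and 0 rose by limma or edgeR (2 at an unadjusted p under 0.05, 1 call by DESeq2), and 6 were lower on average. Eif1a, which is counted apart from that list, fell. It encodes the autosomal form of eIF1A, which stabilises scanning ribosomes. Vehicle tumours had 3744, 3616, 2674, 3137 and 3061 normalised counts of Eif1a and anti-PD-1 tumours 3103, 3177, 2963, 3657 and 2681. Letrozole tumours had 2599, 3115, 2211, 2541 and 2251 and letrozole + anti-PD-1 tumours 2092, 2432, 2433, 2237 and 2446. With antibody the groups did not overlap: the highest combination value was below the lowest anti-PD-1 value. Non-overlap in that direction held for 2 of the 62 genes in this comparison (Eef1b2 and Eif1a), against 1.47% of all tested genes. Eif1a fell from 3246 ± 435 to 2543 ± 363 without antibody and from 3116 ± 357 to 2328 ± 158 with it (log2 −0.38, SE 0.08, adjusted p = 0.00479), and the call was lost without the 4 muscle libraries (log2 −0.36, adjusted p = 0.0878).

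The X-linked copy Eif1ax was not called. Eif1ax stood at 3857, 3425, 3013, 3969.5 and 3439.7 normalised counts in the vehicle tumours and at 2722, 3256, 3197, 3227 and 2404 in the anti-PD-1 tumours. Its values were 2955, 2882, 2752, 3828 and 3667 with letrozole and 3262, 3139.8, 3009.5, 3132 and 3052 with letrozole + anti-PD-1. Its difference was −0.03 (95% interval −0.19 to 0.13, adjusted p = 0.853), and no 50-base word of its transcript occurs in another gene. Eif1, whose protein guards start codon choice, was not called. The normalised counts of Eif1 were 2906, 3739, 2658, 3046 and 2945 with vehicle and 2256, 2692, 2778, 2971 and 2778 with anti-PD-1. They were 2729, 3189, 3021, 3136 and 2898 with letrozole and 2952, 2912, 3019, 2798 and 2714 with the combination. The groups overlapped. Eif1 differed by 0.04 (95% interval −0.09 to 0.17, adjusted p = 0.767), and 31.6% of its 50-base words occur elsewhere. Eif1b, a paralogue of Eif1, had 5 letrozole values below all 5 vehicle values, but overlapped with antibody and was not called (log2 −0.30, 95% interval −0.51 to −0.10, adjusted p = 0.0698). It was called by DESeq2 (log2 −0.30, adjusted p = 0.0415), without both libraries that stand apart (log2 −0.35, adjusted p = 0.0331), without anti-PD-1 replicate 1 (log2 −0.34, adjusted p = 0.0393) and without letrozole + anti-PD-1 replicate 4 (log2 −0.35, adjusted p = 0.0364). In that comparison without antibody 3 of the 62 genes were lower without overlap (Eef1akmt3, Eif1b and Eif2a), against 1.97% of all tested genes. Eif6, which keeps large ribosomal subunits from joining too early, was not called. In the vehicle group Eif6 was measured at 1799, 2277, 1846, 1952 and 2398 normalised counts, and in the anti-PD-1 group at 2815, 2008, 1843, 1918 and 1683. The letrozole group had 1901, 1721, 1786, 1967 and 1971, and the letrozole + anti-PD-1 group 1775, 2113, 2293, 1681 and 1858. Anti-PD-1 replicate 1 had the highest value, and the groups overlapped. Its difference was −0.10 (95% interval −0.28 to 0.09, adjusted p = 0.539), and Eif1ad, Eif5 and Eif5b lay between −0.19 and −0.08.

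The eIF3 complex is the largest initiation factor. Of its 14 genes 1 fell, against 3.72% of all tested genes, and 12 were lower on average. The median was −0.16, with a narrow range from −0.27 (Eif3e) to 0.12 (Eif3j2). The gene that fell was Eif3e. Vehicle tumours had 7933, 6501, 5721, 6441 and 6231 normalised counts of Eif3e and anti-PD-1 tumours 5265, 6420.3, 6908, 5920.2 and 5925. Letrozole tumours had 5492, 5729, 4620.4, 5429.5 and 4935 and letrozole + anti-PD-1 tumours 4391, 5962, 5404, 5054 and 5222. Vehicle replicate 1 was the highest of all 20, and the groups overlapped in both arms. Eif3e fell from 6566 ± 824 to 5241 ± 451 without antibody and from 6088 ± 615 to 5207 ± 569.7 with it (log2 −0.27, SE 0.07, adjusted p = 0.0238). The call was lost without letrozole replicate 3 (log2 −0.25, adjusted p = 0.0502) and without the 4 muscle libraries (log2 −0.31, adjusted p = 0.107). The transcript used for Eif3e is annotated as retaining an intron.

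Eif3c, a core subunit, missed the threshold. Eif3c stood at 16395, 14142, 12444, 15443 and 14403 normalised counts in the vehicle tumours and at 13949, 13219, 14742, 15132 and 13732 in the anti-PD-1 tumours. Its values were 12881, 12157, 13084, 14582 and 12509 with letrozole and 10697, 12817, 11461, 13479.9 and 12403 with letrozole + anti-PD-1. The 3 lowest values were those of letrozole + anti-PD-1 replicates 1 and 3 and letrozole replicate 2. Its difference was −0.19 (95% interval −0.32 to −0.06, adjusted p = 0.0712), and it was called by DESeq2 (log2 −0.19, adjusted p = 0.0276), without both libraries that stand apart (log2 −0.22, adjusted p = 0.0251) and without vehicle replicate 3 (log2 −0.22, adjusted p = 0.0257). Eif3i (log2 −0.23, 95% interval −0.40 to −0.06, adjusted p = 0.0911) was the other eIF3 gene that missed with an adjusted p under 0.1. It was called by DESeq2 (log2 −0.24, adjusted p = 0.0465), without both libraries that stand apart (log2 −0.27, adjusted p = 0.0309), without vehicle replicate 3 (log2 −0.27, adjusted p = 0.0271) and without anti-PD-1 replicate 5 (log2 −0.27, adjusted p = 0.0413). The paired genes Eif3j1 and Eif3j2 encode a loosely bound subunit and share sequence. The normalised counts of Eif3j2 were 332, 326, 258, 299.8 and 322 with vehicle and 123, 259, 323, 308 and 350.0 with anti-PD-1. They were 335, 291, 268, 284 and 244 with letrozole and 348, 329.9, 409.9, 277 and 294 with the combination. The lowest value was that of anti-PD-1 replicate 1, and the groups overlapped. In Eif3j2 91.8% of the 50-base words also occur elsewhere, nearly all of them in Eif3j1, and in Eif3j1 39.8% do, so their split is uncertain. Neither Eif3j1 (log2 0.08, 95% interval −0.31 to 0.47, adjusted p = 0.851) nor Eif3j2 (log2 0.12, 95% interval −0.19 to 0.43, adjusted p = 0.676) was called. The other 9 subunit genes, Eif3a, Eif3b, Eif3d, Eif3f, Eif3g, Eif3h, Eif3k, Eif3l and Eif3m, lay between −0.23 and −0.05. Of these Eif3b was called without vehicle replicate 3 (log2 −0.26, adjusted p = 0.042) and Eif3d without anti-PD-1 replicate 5 (log2 −0.31, adjusted p = 0.0441).

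Of the 9 elongation factor genes 1 fell, against 3.72% of all tested genes, and 8 were lower on average (median −0.22). The gene that fell was Eef1b2, the exchange factor that recharges eEF1A. In the vehicle group Eef1b2 was measured at 12943, 13358, 9072, 10544 and 11102 normalised counts, and in the anti-PD-1 group at 12621, 9926, 10056, 11685 and 10213. The letrozole group had 7467, 11747, 7153, 8407 and 7699.7, and the letrozole + anti-PD-1 group 5715, 8619.6, 8967, 7238 and 7680.2. Letrozole replicate 2 was high for its group, at a level inside the vehicle range. With antibody the groups did not overlap. Eef1b2 fell from 11404 ± 1765 to 8495 ± 1876 without antibody and from 10900.2 ± 1195 to 7644 ± 1283 with it (log2 −0.48, SE 0.10, adjusted p = 0.00711), and the call was lost without the 4 muscle libraries (log2 −0.44, adjusted p = 0.113). Its partner subunits Eef1g (log2 −0.28, 95% interval −0.53 to −0.03, adjusted p = 0.169) and Eef1d (log2 −0.22, 95% interval −0.50 to 0.05, adjusted p = 0.329) were not called, and 64.3% of the 50-base words of Eef1g occur in other genes.

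Eef1a1, which encodes the main eEF1A, was the most abundant of the 62 per length. Vehicle tumours had 145736, 154204, 114177, 128635 and 139497 normalised counts of Eef1a1 and anti-PD-1 tumours 111610.0, 127223, 128098, 125938 and 130295. Letrozole tumours had 102322, 140824, 101560.0, 119015 and 114804 and letrozole + anti-PD-1 tumours 88659.5, 131377, 112754, 108837 and 101610.0. The groups overlapped broadly, and the difference was −0.22 (95% interval −0.42 to −0.03, adjusted p = 0.161). Of its 50-base words 59.2% occur in other genes. Eef2, the translocation factor, came next in abundance. Eef2 stood at 112280.0, 103886, 82133, 101855 and 93236 normalised counts in the vehicle tumours and at 105156, 83434, 114757, 95519 and 87094 in the anti-PD-1 tumours. Its values were 86338, 86131, 71695, 85750.5 and 74704 with letrozole and 58319.6, 96384, 92482, 72770.0 and 77805 with letrozole + anti-PD-1. Letrozole + anti-PD-1 replicate 1 was the lowest of the 20, and the difference was −0.29 (95% interval −0.50 to −0.08, adjusted p = 0.085). Eef2 was called by DESeq2 (log2 −0.29, adjusted p = 0.0223) and without vehicle replicate 3 (log2 −0.32, adjusted p = 0.0429). Eif5a, the hypusine-bearing factor that relieves stalled ribosomes, was the third per length. The normalised counts of Eif5a were 12318, 17189.7, 10939, 12889.9 and 11900.1 with vehicle and 19106, 13777, 14319, 14415 and 10050.2 with anti-PD-1. They were 12549, 12122, 11506, 11735 and 9412 with letrozole and 11790.3, 11601, 12222, 11277 and 11293 with the combination. The highest values were those of anti-PD-1 replicate 1 and vehicle replicate 2, and the groups overlapped. Its difference was −0.22 (95% interval −0.43 to −0.02, adjusted p = 0.173), and it was called without anti-PD-1 replicate 5 (log2 −0.28, adjusted p = 0.0475).

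Eif5a2, a paralogue of Eif5a, was the rarest member. In the vehicle group Eif5a2 was measured at 9.16, 22.7, 59.9, 3.57 and 14.2 normalised counts, and in the anti-PD-1 group at 12.7, 15.5, 16.6, 22.5 and 49.2. The letrozole group had 51.2, 25.3, 30.7, 40.8 and 46.6, and the letrozole + anti-PD-1 group 9.27, 34.6, 40.2, 32.7 and 12.3. The values scattered from 3.57 to 59.9, vehicle replicate 3 being the highest, and the difference was 0.69 (95% interval −0.16 to 1.55, adjusted p = 0.328). Eef2k, the kinase that inhibits eEF2, was not called. Vehicle tumours had 2252, 1629, 1556, 1797 and 1595 normalised counts of Eef2k and anti-PD-1 tumours 1705, 1619, 1912, 1442 and 1768. Letrozole tumours had 2101, 1421, 1755, 1979 and 1697 and letrozole + anti-PD-1 tumours 1798, 1815, 1480.4, 1949.5 and 1813. The groups overlapped broadly. Its difference was 0.04 (95% interval −0.13 to 0.22, adjusted p = 0.797). Of the 5 methyltransferase genes for elongation factors, Eef1akmt3 was lower in all 5 letrozole than in all 5 vehicle tumours, at 19.0 to 46.9 against 48.7 to 59.9 normalised counts. With antibody the groups overlapped, at 27.7 to 44.1 in combination against 26.7 to 121 in anti-PD-1 tumours. Eef1akmt3 was not called (log2 −0.74, 95% interval −1.29 to −0.18, adjusted p = 0.0977), except by DESeq2 (log2 −0.83, adjusted p = 0.0334) and without anti-PD-1 replicate 5 (log2 −0.85, adjusted p = 0.0498). Eef1akmt1, Eef1akmt2, Eef1akmt4 and Eef2kmt lay between −0.24 and −0.10, and Eef1e1 and Eefsec at −0.21 and −0.05.

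**Figure D3:**
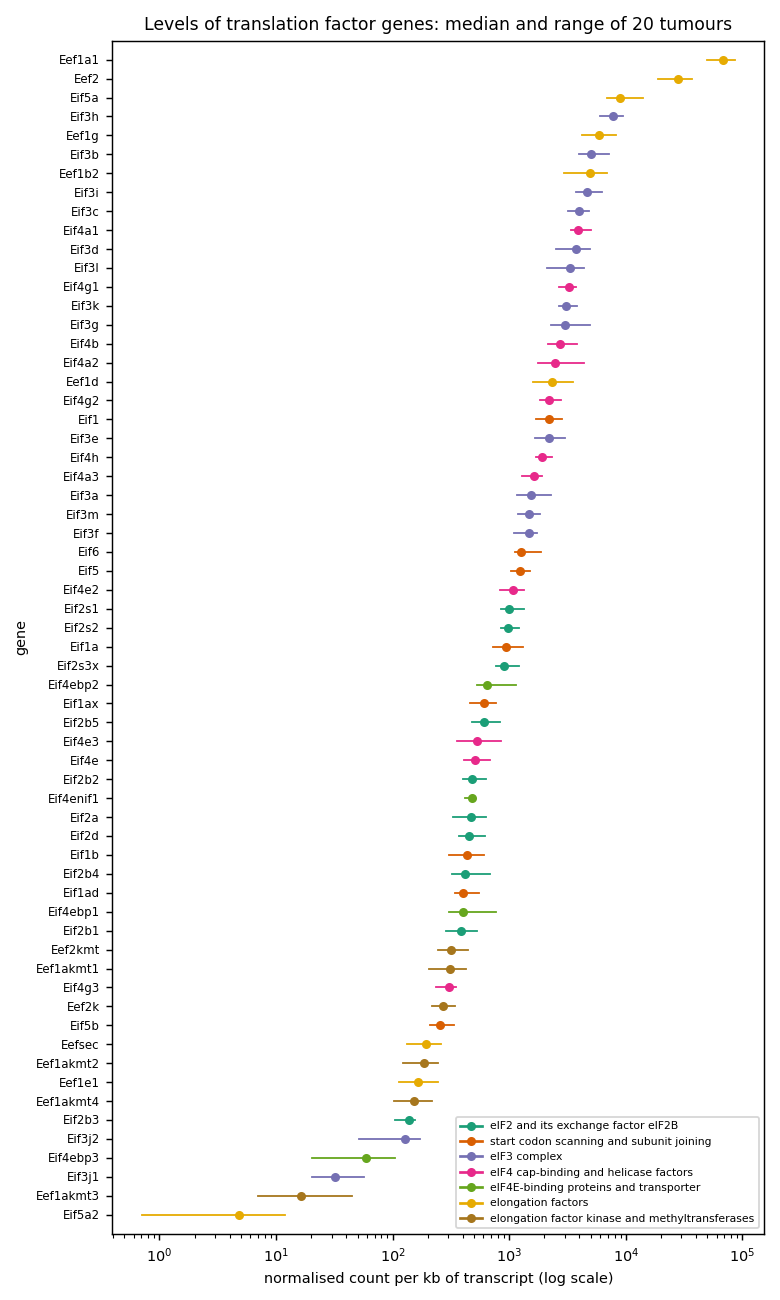
Normalised counts per kb of the transcript used, on a log axis, as the median and range of 20 tumours for each of 62 genes, coloured by role. Eef1a1 (median 68270.0), Eef2 (28073) and Eif5a (8877) are at the top and Eif5a2 (4.77) at the bottom.

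Levels per kb were highest for 3 genes of elongation. Eef1a1 ranged from 49420.0 to 85956 normalised counts per kb over the 20 tumours and did not overlap with Eef2, at 18880.0 to 37150.0. Eef2 in turn did not overlap with Eif5a, at 6956 to 14121. From Eif5a downwards each gene overlapped with the next in the order, as with Eif3h, at 5976 to 9548. The eIF3 genes other than Eif3j1 and Eif3j2 had medians of 1479 (Eif3f) to 7710.3 (Eif3h), above those of the eIF2 subunit genes Eif2s1, Eif2s2 and Eif2s3x, at 904 to 993. Among genes of the cap-binding complex, Eif4a1 (3904) and Eif4g1 (3236) were more abundant than Eif4e (506). The transcript used held 7.85% to 100% of the summed values of the transcripts of its gene, so these levels are those of 1 transcript. Transcripts of a gene may share reads, so these shares need not be shares of its reads.

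The average rests on 2 comparisons with no tumour in common. In letrozole against vehicle limma called 0 of the 62 genes, against 0.951% of all tested genes. At an unadjusted p under 0.05, 16 were lower and 2 higher (Eif4e3 and Eif5a2), against 6.51% of all tested genes lower and 7.34% higher (13.9% in all). edgeR called 0 (0.85% of all tested genes) and DESeq2 called 5 (3.14% of all), with Eif4e3 higher and Eif1a, Eif2b1, Eif4e and Eif4ebp1 lower. The lowest limma value was that of Eif4e3 (log2 0.61, SE 0.16, adjusted p = 0.0834). Without vehicle replicate 3 limma called 5 (Eif1a, Eif2b1, Eif3i, Eif4e and Eif4ebp1), all lower. Without it and anti-PD-1 replicate 1 limma called 10. In the average over both arms these 2 settings also raised the calls among all tested genes, from 1391 to 2329 and 2457. Such all-gene counts are not given for letrozole against vehicle, so a gain particular to the members cannot be read from the 5 and 10. Without anti-PD-1 replicate 3 limma called Eif4e3 (adjusted p = 0.0375). Anti-PD-1 libraries enter this comparison only through the shared estimate of spread.

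In letrozole + anti-PD-1 against anti-PD-1 limma also called 0, against 1.07% of all tested genes. Here 12 were lower and 1 higher at an unadjusted p under 0.05, against 6.67% of all tested genes lower and 6.78% higher (13.4% in all). edgeR called 0 (0.835% of all tested genes) and DESeq2 called 4 (2.68% of all), with Eif4e3 higher and Eef1b2, Eif1a and Eif4e lower. The lowest limma value was that of Eif1a (log2 −0.42, SE 0.11, adjusted p = 0.071). Without anti-PD-1 replicate 3, the tumour with the most Eif4e3 of its group, Eif4e3 was called (log2 0.74, adjusted p = 0.0159), as it was without letrozole + anti-PD-1 replicate 4 (0.0376). Eif1a was called without vehicle replicate 3 (0.0496) and Eef1b2 without letrozole replicate 2 (0.0494), which enter only through the shared estimate of spread. Across both comparisons 50 of the 62 genes were lower in both, 4 were higher in both (Eef2k, Eif4a2, Eif4e3 and Eif5a2) and 8 differed in sign. Of all tested genes 31.2% were lower and 38.4% higher in both. The Pearson correlation of the 2 differences across the 62 genes was 0.628, against 0.419 across all tested genes. No member separated all 10 letrozole-treated tumours from the other 10, in either direction (0.196% of all tested genes did so upwards and 0.257% downwards). Genes are not independent replicates, and these values are descriptions.

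**Figure D4:**
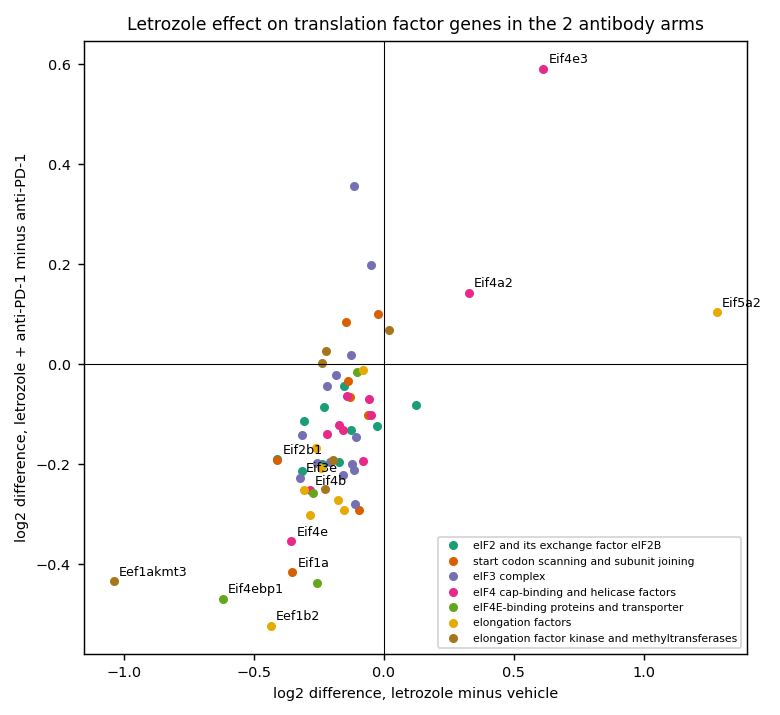
Log2 difference of each of 62 genes in letrozole against vehicle (horizontal) and in letrozole + anti-PD-1 against anti-PD-1 (vertical), coloured by role. The lower left part holds 50 genes, and Eif4e3 lies alone near the upper edge at 0.61 and 0.59.

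Anti-PD-1 was compared with vehicle in sham-operated mice. Limma called 0 of the 62 genes, against 0% of all tested genes, and 1 gene had an unadjusted p under 0.05, Eif1ax (log2 −0.26, 95% interval −0.49 to −0.04, adjusted p = 1), against 2.72% of all tested genes. edgeR and DESeq2 called 0. The differences lay between −0.26 (Eif1ax) and 0.44 (Eif5a2). The difference was −0.13 for Eef1a1 (95% interval −0.40 to 0.15) and 0.01 for Eif4e (−0.20 to 0.22). In letrozole + anti-PD-1 against letrozole limma called 0, against 0% of all tested genes, and 0 genes had an unadjusted p under 0.05, against 3.15%. edgeR and DESeq2 called 0. There Eif4e differed by 0.02 (−0.19 to 0.23) and Eif4e3 by 0.03 (−0.31 to 0.38).

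Whether the letrozole effect itself differed with antibody was tested as an interaction. Limma, edgeR and DESeq2 each called 0 of the 62 genes, against 0% of all tested genes by limma, and 0 had an unadjusted p under 0.05, against 1.98%. For Eif4e the difference between the 2 effects was 0.00 (95% interval −0.29 to 0.30), for Eif4e3 −0.02 (−0.50 to 0.46) and for Eif4ebp1 0.15 (−0.36 to 0.66).

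Other genes of the translation pathway were described from lists. Of 16 genes that feed into eIF4F (mTORC1, MNK kinases and poly(A)-binding proteins) 3 fell with letrozole over both arms and 0 rose, against 3.72% and 3.28% of all tested genes, with a median of −0.06. They were Ddit4, an inhibitor of mTORC1, Pdcd4, an inhibitor of the eIF4A helicase, and Pabpc4, a poly(A)-binding protein. Pdcd4 went from 4265 ± 709.8 to 3335 ± 472 without antibody and from 4652 ± 348 to 3063 ± 452 with it (log2 −0.48, SE 0.09, adjusted p = 0.00212). Ddit4 went from 4011 ± 279.6 to 2801 ± 467 and from 4936 ± 1239 to 2753 ± 246 (log2 −0.67, SE 0.10, adjusted p = 3.08e-04), and Pabpc4 differed by −0.54 on average (adjusted p = 0.00294). Of the 50-base words of Pabpc4 73.6% occur in other genes, so its level is uncertain. Mtor itself differed by 0.04 (95% interval −0.10 to 0.17, adjusted p = 0.785) and Rps6kb1, the S6 kinase, by −0.11 (95% interval −0.27 to 0.05, adjusted p = 0.418).

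Of 9 tested genes for hypusine synthesis, termination and ribosome recycling (10 listed) 2 fell and 0 rose, against 3.72% and 3.28% of all tested genes (median −0.20). Hbs1l, which rescues stalled ribosomes with its partner Pelo, fell from 2025 ± 307 to 1351 ± 170.4 without antibody (log2 −0.58, SE 0.12, adjusted p = 0.0266) and from 1774 ± 32.1 to 1232 ± 224 with it (log2 −0.55, SE 0.12, adjusted p = 0.0368). edgeR did not call Hbs1l in the comparison with antibody (adjusted p = 0.0641), and DESeq2 did (0.00989). The recycling gene Abce1 fell on average (log2 −0.37, SE 0.10, adjusted p = 0.0381). How the calls of Ddit4, Pdcd4, Pabpc4, Hbs1l and Abce1 change without single libraries, or without those with skeletal muscle transcripts, was not tested. Of the 6 tested kinase and phosphatase genes that act on eIF2 (7 listed), 0 were called over both arms by limma, edgeR or DESeq2, with 3 at an unadjusted p under 0.05, against 22.9% of all tested genes, and a median of −0.03. Limma, edgeR and DESeq2 also called 0 of 9 mitochondrial translation factor genes (2 at an unadjusted p under 0.05, near the same 22.9%, median −0.13).

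Eef1a2, which encodes the form of eEF1A known from skeletal muscle, heart and neurons, did not pass the level filter and was not tested. Eef1a2 stood at 2.75, 0, 0, 0 and 0 normalised counts in the vehicle tumours and at 0, 0, 0, 1.25 and 0.684 in the anti-PD-1 tumours. Its values were 80.4, 0, 0, 26.6 and 25.9 with letrozole and 0, 68.3, 0, 0 and 0 with letrozole + anti-PD-1. The 4 libraries with more than 20 normalised counts were letrozole replicates 1, 4 and 5 and letrozole + anti-PD-1 replicate 2. The other 16 were listed at 0 to 2.75. The same 4 libraries had the highest skeletal muscle marker means, at 6.07 to 7.45 on the log2(normalised count + 1) scale over 10 genes, against 1.19 to 3.70 in the other 16. In those 16 libraries up to 6 of the 10 muscle markers were at 0. The call of each of the 8 genes over both arms was lost without these 4 libraries, which leaves 2 letrozole and 4 letrozole + anti-PD-1 tumours. The log2 differences then lay between −0.59 (Eif4ebp1) and −0.27 (Eif4b) for those that fell and at 0.53 for Eif4e3, with adjusted p-values of 0.0617 to 0.194, and 284 of all tested genes were called in place of 1391.

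**Figure D5:**
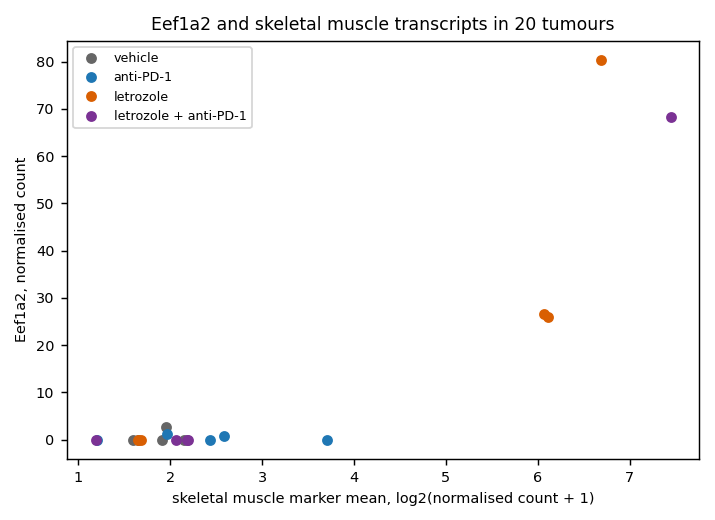
Normalised count of Eef1a2 against the mean of 10 skeletal muscle markers on the log2(normalised count + 1) scale, 1 point a tumour, coloured by group. The 4 libraries with marker means of 6.07 or more are the only ones with Eef1a2 above 20 normalised counts.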

How the data were processed

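Bulk RNA-seq of 20 tumours, 5 per group, was analysed from a deposited table of normalised values per transcript. The aligner STAR 2.7.10a, the genome build GRCm39 (mm39) and DESeq2 are named, without their order or settings, per the submitters' processing notes. The read counter, its annotation and its strand setting were not given in the sources used here. Whether a read was counted for several transcripts of a gene is therefore not known. Values, as deposited by the authors, are a normalised signal, read counts divided by a library's size factor: dividing by each library's step gave whole reads for 100% of values (tolerance 0.001). Transcripts were named from GENCODE mouse release 21, which matched 118889 of 127442; the 8553 unnamed ones held 1.79% to 2.76% of library totals and were left out. For each of 38996 genes the transcript with the highest total was taken, and 19876 genes with a value of 10 or more in 5 or more libraries were tested. limma 3.58.1 with trend was fitted to log2(value + 1) as 4 group means over all libraries, two-sided, with Benjamini-Hochberg adjustment over all tested genes at 0.05. A fold on this scale understates the change of low genes. The alternatives were other pseudocounts, filters, scalings and choices of transcript, leaving out libraries, and a block by replicate number. edgeR 4.0.16 and DESeq2 1.42.0 on the recovered counts were run beside the test on the deposited values. The scripts were tested on simulated data. The 5 tumours of a group are separate animals as far as the labels say. Members and lists were chosen with earlier results of these data known. Values in every sample are given for a panel of 13 genes, for each member called at 0.05, and for up to 5 members with the smallest p in each direction in the letrozole comparisons. Shared sequence was counted as words of 50 bases found in transcripts of other genes. Promoter windows are RefSeq's on GRCm38.p6, not the build of the alignment.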

Additional observations from a re-analysis of the deposited data

Results flagged for a closer look

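In 9 of 100 groups of 5 tumours, taken over 25 genes, 1 library lay far from the others of its group (a gap to its nearest neighbour above 0.710 of the group's range). Chance flags about 1 in 20 groups. Among vehicle tumours Eif4e was lowest at 2422 in replicate 3, with the next at 2976. Among anti-PD-1 tumours Eif6 was highest at 2815 and Eif2b4 at 1381, both in replicate 1, with the next at 2008 and 875. Eef1a1 was lowest at 111610.0 in that same library, with the next at 125938. Eif5a2 was highest at 49.2 in anti-PD-1 replicate 5, with the next at 22.5. Among letrozole tumours Eef1b2 was highest at 11747 in replicate 2 (next 8407) and Eif4e3 at 1899 in replicate 5 (next 1569). Eef1a2 was at 68.3 in letrozole + anti-PD-1 replicate 2 and at 2.75 in vehicle replicate 1, with the other 4 libraries of each group listed at 0. Anti-PD-1 replicate 1 holds 3 of the 9, and it is also the library with the fewest reads.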

How the results depend on the processing

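None of the 8 members called over both arms reversed its direction under any of 33 alternatives. The called genes of the other pathway lists were not followed through the alternatives that leave out libraries. Called members of the 62 numbered 8 over both arms by limma, 16 by DESeq2, 16 without the 2 libraries that stand apart, and 5 to 16 when 1 library was left out. Without the 4 libraries with skeletal muscle transcripts, an alternative chosen after seeing the data, the count was 0, with 6 letrozole tumours left. In letrozole against vehicle the 0 of limma became 5 with DESeq2 (3.14% of all tested genes). It became 10 without the 2 libraries that stand apart, and 0 to 5 when 1 library was left out. In letrozole + anti-PD-1 against anti-PD-1 it became 4 with DESeq2 (2.68% of all tested genes) and 0 to 1 when 1 library was left out. The cause of these changes was not tested. For these 2 comparisons the all-gene counts without libraries or with the replicate block are not given. A general gain in calls and one of the members cannot be told apart there. The block by replicate number gave 1 call in letrozole against vehicle (Eif4ebp1, adjusted p = 0.0417) and 7 over both arms, with Eif2b1 lost (adjusted p = 0.0634). Over both arms that block gave 1394 calls among all tested genes. The labels do not say what a replicate number shares: over 30 pairs of libraries with the same number the correlation of deviations ran from −0.34 to 0.20, and 1 of 20 libraries correlated best with its own number. Over the alternatives Eif2b1 was lost in 18 and Eif4b in 11, with quantile normalisation and median centring among them. Eif3e was lost in 2, and Eif4e3, Eif4e, Eif1a, Eef1b2 and Eif4ebp1 in 1, the one without the 4 muscle libraries. In the average over both arms 1391 of all tested genes were called, against 932 with no filter and 2002 by DESeq2. That count was 2457 without the 2 libraries, 2329 without vehicle replicate 3, 999 without letrozole replicate 3 and 284 without the 4. The standard error limits what could be called, and Eif5a2, at 3.57 to 59.9 normalised counts, was the least precise.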
